A study of Caenorhabditis elegans with 4 samples.

Results

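Chromosome III of *Caenorhabditis elegans* held 2895 of the 12447 MRG-1 peaks in the list deposited for the series. The lists of the 2 ChIP replicates held 688 of 3283 and 773 of 3184 peaks there. A peak belonged to this set when its line named chromosome III, so no measured value chose the members. The peaks came from chromatin immunoprecipitation and sequencing (ChIP-seq) of *fem-2(b245)* worms, a temperature-sensitive allele of a gene that male development requires; its label places it on III. The worms were labelled as hermaphrodites in the young adult stage with a germ line, the temperature as 20 °C, and the growth protocol refers to gravid adults grown in synchronized cultures. The affinity-purified antibody was polyclonal, raised in rabbit against a stretch of MRG-1. ChIP and input DNA each had 2 samples of this genotype, and values for the input libraries were not analysed here. No label states that the replicates were separate cultures, and their spread may be technical.

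MRG-1 carries a chromodomain, a fold that reads methylated histone tails. Its mammalian relative MRG15 binds histone H3 methylated at lysine 36, a mark laid down over transcribed gene bodies, and MRG-1 is known for its need in the worm germ line. The chromosomes of *C. elegans* are holocentric, with spindle attachment spread along their length. An autosome has a gene-rich centre with little recombination and 2 arms richer in repeats and in recombination. Both *fem-2* and *mrg-1* lie on chromosome III in the RefSeq gene table (assembly WBcel235). The peaks are given in WormBase WS220, another build, so no gene is named at a peak and no sequence of a peak is shown.

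Replicate 1 peaks covered 3.39 Mb, or 24.6% of the 13.8 Mb up to the last peak of any list, and replicate 2 peaks covered 2.29 Mb, or 16.6%. The mean was 20.6% ± 5.65 (SD, n = 2). The series list covered 23.9%. Replicate 2 had more peaks than replicate 1 and covered fewer bases, because its peaks were narrower. Their median width was 2085 bases against 3256 in replicate 1, and their number was 773 against 688, or 730.5 ± 60.1 (SD, n = 2). The first peak began at base 57371 in replicate 1, at 57348 in replicate 2 and at 57559 in the series list. The left 57 kb was thus free of peaks in all 3 lists.

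Set against the other 4 autosomes, chromosome III was covered 1.45-fold more in replicate 1 and 1.59-fold more in replicate 2, a geometric mean of 1.52. Chromosome I was close to it, with 1.52-fold and 1.44-fold, so the order of I and III was not the same in the replicates. Chromosome II had 1.02-fold and 1.003-fold. With 2 replicates, an exact two-sided permutation test by sign flips cannot give a p below 0.5, so differences between chromosomes or between stretches are given here with both replicate values and without a test. The lists hold no read counts, and the depth behind a peak is unknown.

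Dense and sparse stretches alternated along the chromosome, on a step from a sparse left arm to a dense centre. Coverage was measured in 68 full windows of 200 kb. It ran from 6.39% to 58.9% in replicate 1, with a median of 22.2%, and from 2.19% to 35.4% in replicate 2, with a median of 14.7%. No full window was free of peaks in either replicate. By the mean of both replicates, the leftmost 21 windows, from base 1 to 4200000, all lay below the chromosome's window mean of 20.5%. List by list the run was broken, as 1 of the 21 exceeded the window mean of replicate 1 (24.5%), 3 that of replicate 2 (16.6%) and 3 that of the series list (23.9%). The mean of both replicates then lay above 20.5% in all 9 windows from 4200001 to 6000000, at 30.3% on average. Of the windows above the window mean of replicate 1, 22 lay in the centre, 8 in the right arm and 0 in the left arm. In replicate 2 these numbers were 26, 4 and 1, and in the series list 26, 3 and 1. The centre holds 35 of the windows, the left arm 17 and the right arm 16.

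By the mean of both replicates, the densest window lay at 9400001 to 9600000. It had 58.9% of its bases inside peaks in replicate 1 and 35.2% in replicate 2. It ranked 1st and 2nd in these lists and 2nd in the series list, at 51.03%. The window from 4400001 to 4600000 came next, with 49.4% and 31.5%. It was followed by 7000001 to 7200000 with 41.7% and 35.1%, 8600001 to 8800000 with 50.5% and 24.5%, and 5200001 to 5400000 with 50.1% and 24.6%. All 5 lay in the centre. The last 2 ranked 18th and 17th in replicate 2, so their place rested on replicate 1. In the series list the densest window was another, 4800001 to 5000000, at 51.7%. The replicates had 32.6% and 32.4% there. The window next to the densest by the replicate mean, from 9200001 to 9400000, had a mean of only 10.4%, which shows how sharply coverage could change.

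The emptiest window lay in the left arm at 1200001 to 1400000, with 6.95% in replicate 1, 2.40% in replicate 2 and 2 peaks in each. Windows at 400001 to 600000 and 200001 to 400000, on the same arm, had 7.90% and 2.19%, and 8.39% and 4.28%. Another left arm window, 2800001 to 3000000, had 6.39% and 3.88%. The remaining window among the 5 lowest, 13000001 to 13200000 in the right arm, had 7.56% and 3.04%. Each of the 5 ranked between 62nd and 68th of 68 in both replicates, which their choice by a low mean of both largely fixes.

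**Figure D1:**
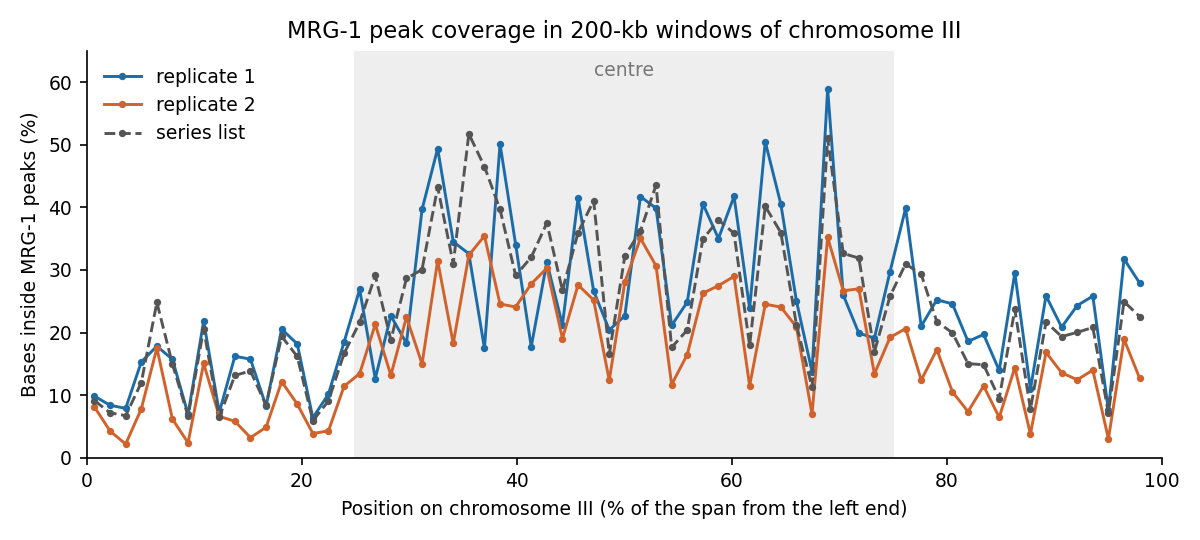
Percent of bases inside MRG-1 peaks (y axis) in 68 full 200-kb windows of chromosome III, against position as percent of the span from the left end (x axis), for both replicates and the series list. The grey band marks the centre. The highest point is the window with 58.9% in replicate 1 and 35.2% in replicate 2, and replicate 2 lies above replicate 1 in 7 windows.

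The centre, the middle 50% of the span from 3445931 to 10337792, was covered more than the arms in both replicates. The ratio of centre to arms was 1.67 in replicate 1 and 2.34 in replicate 2, a geometric mean of 1.98. All autosomes had a ratio above 1. On the others it ran from 1.67 on II to 2.16 on V in replicate 1, where III was the lowest of the 5, and from 2.01 on IV to 2.74 on V in replicate 2. Behind the similar pattern of coverage the replicates differed, over all calls, in how the centre was filled. In replicate 1 the centre had 48.2 peaks per Mb and the arms 51.7, a ratio of 0.933, while the median width was 5134 bases in the centre and 2074 in the arms. In replicate 2 the centre had 70.1 peaks per Mb against 42.1, a ratio of 1.67, and the median widths were 2320 and 1674 bases. More covered bases thus went with wider peaks in replicate 1 and with both more and wider peaks in replicate 2. This contrast depended on the low-scoring peaks. In the better-scoring 50% of each list, the centre-to-arm ratio of median width was 1.28 in replicate 1 and 1.24 in replicate 2. There the ratio of the median gap was 0.504 and 0.325. Of the centre peaks of replicate 1, 50.6% were 5 kb or wider, and of its arm peaks 21.6%, with 20.1% and 8.62% in replicate 2. Scores, which rank peaks only within a list, were also higher in the centre. Replicate 1 had a median of 1460 in the centre and 285 in the arms, and replicate 2 of 349 and 184.

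The split between number and width was seen on other autosomes as well. The centre-to-arm ratio of peaks per Mb in replicate 1 was 0.938 on chromosome I, 0.955 on II, 1.09 on IV and 1.34 on V, and in replicate 2 it was 1.72, 1.81, 1.70 and 2.14. The centre-to-arm ratio of median width on chromosome III was 2.48 in replicate 1 and 1.39 in replicate 2. On the other autosomes it ran from 1.96 on V to 2.15 on I in replicate 1, and from 1.14 on II to 1.38 on V in replicate 2. The rank of III depended on the measure. By mean width in replicate 1 it had 1.79 and chromosome I 1.85, and by median width in the series list III had 1.598 and V 1.605.

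The right arm was covered more than the left in both lists. Replicate 1 had 23.3% in the right arm and 13.5% in the left, and replicate 2 had 12.5% and 7.40%, so the ratios were 1.73 and 1.69. Here the number of peaks differed and the width did not follow it. Per Mb, the right arm had 65.0 peaks in replicate 1 and 52.8 in replicate 2, the left arm 38.3 and 31.3. Median widths were 2004 bases on the right and 2231 on the left in replicate 1, and 1648 and 1688 in replicate 2. Chromosome II also had the higher coverage on its right, by 1.80 and 2.42-fold. The right-to-left ratios of I, IV and V were below 1 in both replicates, from 0.697 on V in replicate 2 to 0.868 on I in replicate 1.

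**Figure D2:**
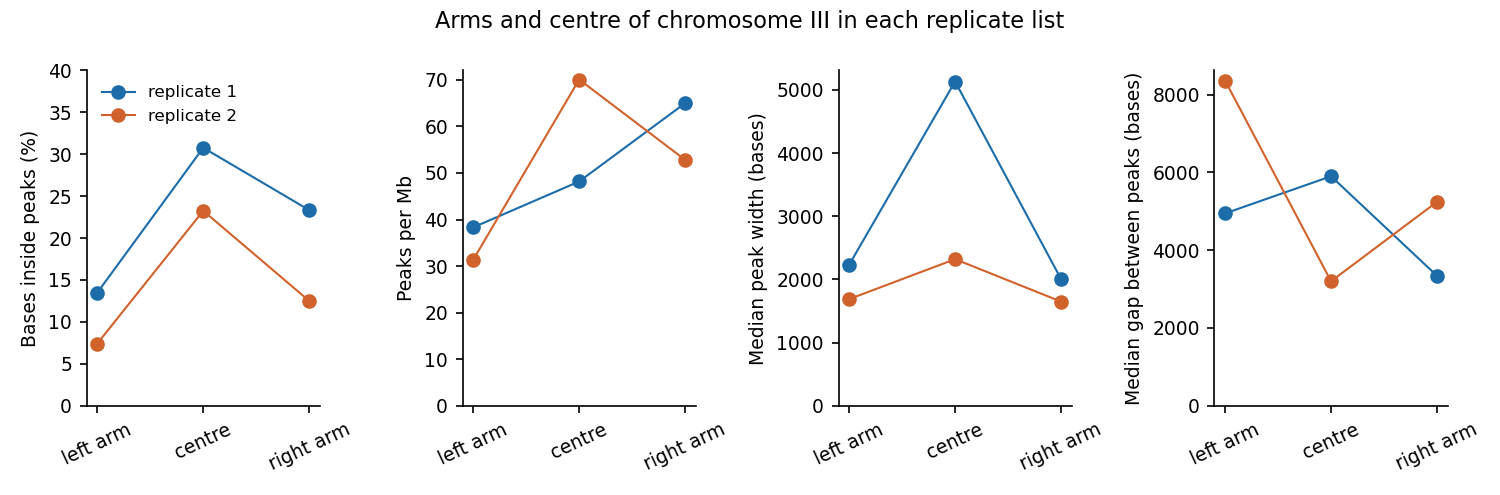
Covered bases, peaks per Mb, median peak width and median gap (y axes) in the left arm, centre and right arm of chromosome III, with a point for each replicate list. Coverage is highest in the centre in both lists, whereas peaks per Mb is highest in the right arm in replicate 1 (65.0) and in the centre in replicate 2 (70.1).

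Peak spacing ran from a few bases to over 100 kb, with many peaks close to a neighbour and a few long empty stretches. The median distance from the end of a peak to the start of the next was 4846 bases in replicate 1 and 4092 in replicate 2, or 4469 ± 533 (SD, n = 2). In replicate 1, 175 of 687 gaps, or 25.5%, were shorter than 1000 bases, and in replicate 2 it was 236 of 772, or 30.6%. At the other end, 53 gaps of replicate 1 and 56 of replicate 2 were longer than 50 kb. They were 7.71% and 7.25% of the gaps, and held 31.2% and 34.97% of the span. When peaks less than 1000 bases apart were joined, 513 groups remained in replicate 1 and 537 in replicate 2, of which 381 and 396 were single peaks. A little over 50% of the peaks thus had no neighbour within that distance, 55.4% in replicate 1 and 51.2% in replicate 2. The largest number of peaks joined in a group was 5 in replicate 1 and 6 in replicate 2.

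The series list was cut more finely, with a median width of 432 bases, a median gap of 395 bases and 69.6% of its gaps under 1000 bases. Joining its peaks left 882 groups. The widest ran over 58931 bases, from 4888185 to 4947115, and held 21 series peaks. Median gaps in the centre and in the arms were ordered differently in the replicates. Replicate 1 had a median gap of 5899 bases in the centre and 3994 in the arms, and replicate 2 had 3199 and 6608. The mean gap was shorter in the centre in both, with centre-to-arm ratios of 0.922 and 0.516.

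**Figure D3:**
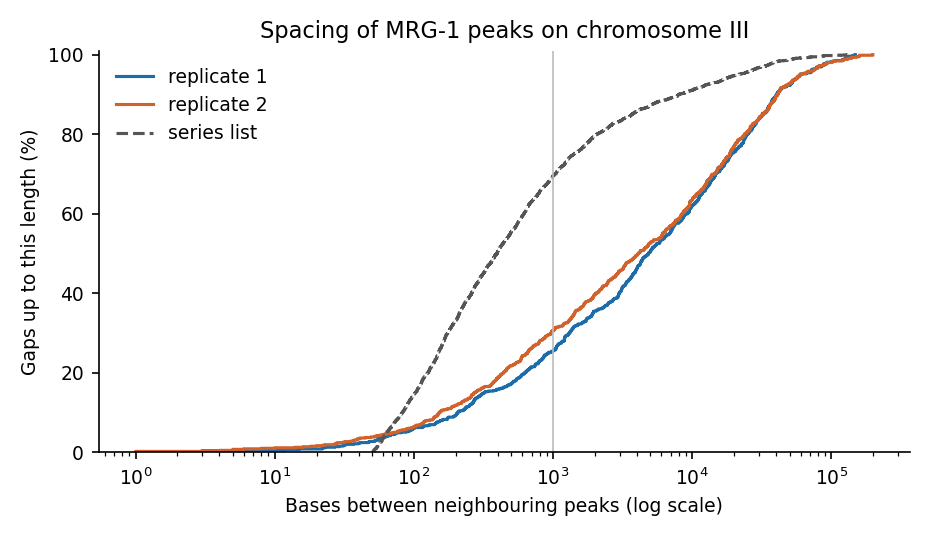
Cumulative percent of gaps (y axis) up to a given length in bases (x axis, log scale) between neighbouring MRG-1 peaks of chromosome III in the 3 lists. The grey line marks 1000 bases, below which lie 25.5% of the gaps of replicate 1, 30.6% of replicate 2 and 69.6% of the series list.

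The longest gap of replicate 1 ran over 149 kb, from 1625870 to 1774490, where replicate 2 peaks reached only 14 bases into it. It was followed by 11344884 to 11488021, with 143 kb and 0 bases of replicate 2 peaks, and by 1962492 to 2101880, with 139 kb and 11 bases of replicate 2 peaks. All 3 were thus nearly empty of peaks in both replicates. In replicate 2 the longest gap was 198 kb, from 1208983 to 1407299, across which replicate 1 had 2 peaks with 4922 bases. The next was 159 kb from 11344489 to 11503876, with 3714 bases of replicate 1 peaks, and then 158 kb from 475245 to 633518, with 11340 bases of replicate 1 peaks. The gap that ends before base 11503876 was thus among the 3 longest of both replicates, and 4 series peaks covered 876 bases of it within the replicate 1 limits.

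The longest gaps of the series list were 132 kb from 6733825 to 6865395, 129 kb from 647587 to 776599 and 123 kb from 12980389 to 13103849. These stretches lay in the centre, the left arm and the right arm. Replicate peaks reached at most 509 bases into any of them. With the edges of all lists combined, the stretch free of every peak was 131 kb at the first place (6734187 to 6865227). It was the longest on the chromosome, although it lay inside the dense centre.

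The 3 widest peaks of each list all lay in the centre. The widest of replicate 1, from 6362257 to 6396497, measured 34.2 kb, scored only 64.33, and met 6 replicate 2 peaks and 7 series peaks. Within it lay the next-widest peak of replicate 2, a 16.4-kb call from 6370815 to 6387216 with a score of 1331. That call was also the longest stretch covered in both replicates. The other wide peaks of replicate 1 were 4572382 to 4599551 with 27.2 kb and 8887168 to 8912223 with 25.1 kb, over which replicate 2 had 2 and 5 peaks. In replicate 2 the widest peak measured 16.8 kb, from 6948670 to 6965440, and met no replicate 1 peak, although series peaks covered 94.997% of it. The remaining wide peak of replicate 2, 7156845 to 7170896, lay wholly inside a replicate 1 peak that scored 3100, as did the stretch from 5439368 to 5453270. They were the other two of the 3 longest shared stretches, with 14.1 kb and 13.9 kb. The series list had its widest peaks at 6370856 to 6389316, 4907136 to 4925233 and 6425509 to 6442743. Replicate 1 had no peak at the last 2 of these, where replicate 2 had 3 and 5.

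The replicate lists were then set against each other. On chromosome III, 439 of 688 replicate 1 peaks overlapped replicate 2 by 1 base or more, a share of 63.8% (95% Wilson interval 60.1 to 67.3%, counting error only). The share over all nuclear chromosomes was 59.7%, and without X, on the other autosomes, 62.3% (60.4 to 64.2%), close to that of III. In the other direction 659 of 773 replicate 2 peaks met a replicate 1 peak, 85.3% (82.6 to 87.6%), against 90.0% over all nuclear chromosomes and 91.5% (90.3 to 92.6%) on the other autosomes. Chromosome III had the lowest such share of the autosomes. Under a rule of 50% of both peaks, 36.3% of replicate 1 and 32.3% of replicate 2 peaks on III were met. Such a rule pairs peaks nearly 1 to 1, so the order of these shares follows from the list sizes, 688 and 773. Shared bases came to 1.87 Mb, in 679 stretches with a median of 1955 bases. They made up 18.1% of the centre, 11.6% of the right arm and 6.41% of the left arm.

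Met and unmet peaks of replicate 1 differed in width and score. Met peaks had a median width of 5332 bases and a median score of 1913, and unmet peaks 1608 bases and 123. The rule of 1 base favours wide peaks, and wide peaks of this list also scored higher. Width and score are thus not separated in these shares. The met share in 4 equal score groups of replicate 1 was 13.4%, 52.3%, 89.5% and, for all 172 peaks of the highest group, 100%. Replicate 2 did not show such a rise. Its met share was 79.3%, 86.01%, 90.2% and, in the highest group, 85.6% (79.9 to 89.8%). By width, 78.7% (70.6 to 85.02%) of its 122 peaks of at least 5 kb and 86.5% (83.6 to 88.9%) of its narrower peaks met replicate 1. These intervals overlapped, and they treat neighbouring peaks as independent. The met share of replicate 2 was 82.6% in the centre, 87.04% in the left arm and 91.2% in the right arm. For replicate 1 it was 73.8% in the centre, 53.8% in the left arm and 54.9% in the right arm.

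**Figure D4:**
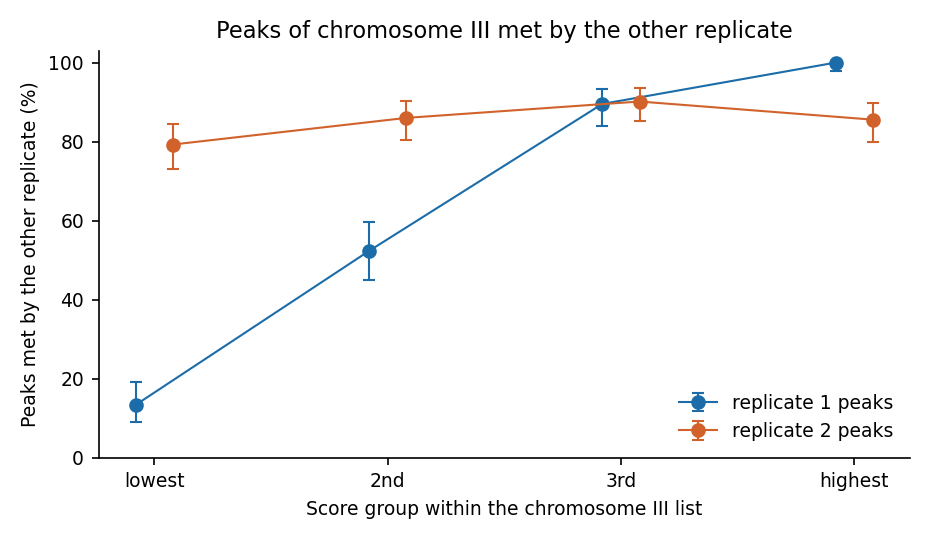
Percent of chromosome III peaks met by a peak of the other replicate (y axis) in 4 equal score groups of each list (x axis), with 95% Wilson intervals as bars. The share climbs from 13.4% to 100% in replicate 1, and stays between 79.3% and 90.2% in replicate 2.

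Where a peak of each replicate met a single partner, in 271 pairs, the replicate 1 peak was wider in 256. Its median width was 4118 bases, that of its partner 2391, and the median of their ratio was 1.46. It began a median of 399 bases to the left of its partner and ended 412 bases to the right, and the midpoints lay a median of 359 bases apart. The added width was thus spread over both sides. A further 146 replicate 1 peaks, or 21.2%, each met 2 or more replicate 2 peaks, up to 7. Only 19 replicate 2 peaks met 2 or more of replicate 1.

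High-scoring peaks of replicate 2 without a partner in replicate 1 were gathered in a few stretches. This pattern was looked for after the values were seen. Of the 365 replicate 2 peaks on III that scored above the list's median, 44 met no replicate 1 peak, which is 12.1% (95% Wilson interval 9.10 to 15.8%). The share over all autosomes was 5.99%, and over the other 4 it was 4.17% (3.19 to 5.45%), with 7.08% on I, 2.66% on II, 5.12% on IV and 0.766% on V. Among the 26 chromosome III peaks of replicate 2 with a score of exactly 3100, 5 had no partner. On the other autosomes it was 3 of 90. With the replicates exchanged the difference was smaller. Of the 362 replicate 1 peaks on III above their list's median score, 26 met no replicate 2 peak, which is 7.18% (4.95 to 10.3%). The share over all autosomes was 5.06%, and over the other 4 it was 4.45% (3.44 to 5.74%), so these intervals overlapped.

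All 44 lay in 16 stretches that held no replicate 1 peak and at least 5 kb of replicate 2 peaks, so they are not independent and the interval above is too narrow. The stretches were 33.7 to 125 kb long, with a median of 51.8 kb, and 14 of them lay in the centre. Together they made up 0.909 Mb, or 6.59% of the span, and held 15.6% of the replicate 2 bases of the chromosome. The other 4 autosomes had 25 such stretches in all, with 2.48% of their span and 4.79% of their replicate 2 bases. Chromosome I had 12 of these, II 4, IV 7 and V 2. Stretches without a replicate 2 peak that held 5 kb or more of whole replicate 1 peaks were more frequent, 26 on III and from 20 on V to 44 on I elsewhere. Counted in the same way, by whole peaks, the stretches without a replicate 1 peak were again 16 on III.

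The stretch with the most replicate 2 bases ran over 51.5 kb, from 9786188 to 9837702. It held 8 replicate 2 peaks with scores up to 3100, which covered 73.2% of it, and series peaks covered 77.97%. In the 43.7 kb from 6421062 to 6464718, replicate 2 peaks covered 79.8% and series peaks 90.5%. The longest, 125 kb from 3664749 to 3790191, was covered to 26.9% by replicate 2 and to 31.4% by the series list. Over the 16 stretches, coverage by the series list ran from 28.6% to 90.5%, with a median of 51.5%; they were chosen by replicate 2 coverage, and 98.2% of replicate 2 peaks touch the series list. Replicate 2 exceeded replicate 1 in 7 of the 68 windows of III, all in the centre, against 4 of 75 on I, 3 of 76 on II, 5 of 87 on IV and 4 of 104 on V. The difference was largest in 5000001 to 5200000, with 35.4% against 17.5% and 46.5% in the series list. That window was the highest of all in replicate 2 and ranked 51st in replicate 1. Across centre windows the coverage of the replicates had a Pearson r of 0.485 (n = 35), and across arm windows of 0.880 (n = 33). Both are given as a description because neighbouring windows are not independent. Why replicate 1 has no calls in these stretches was not tested. Absence of a call and absence of MRG-1 cannot be told apart from these lists.

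**Figure D5:**
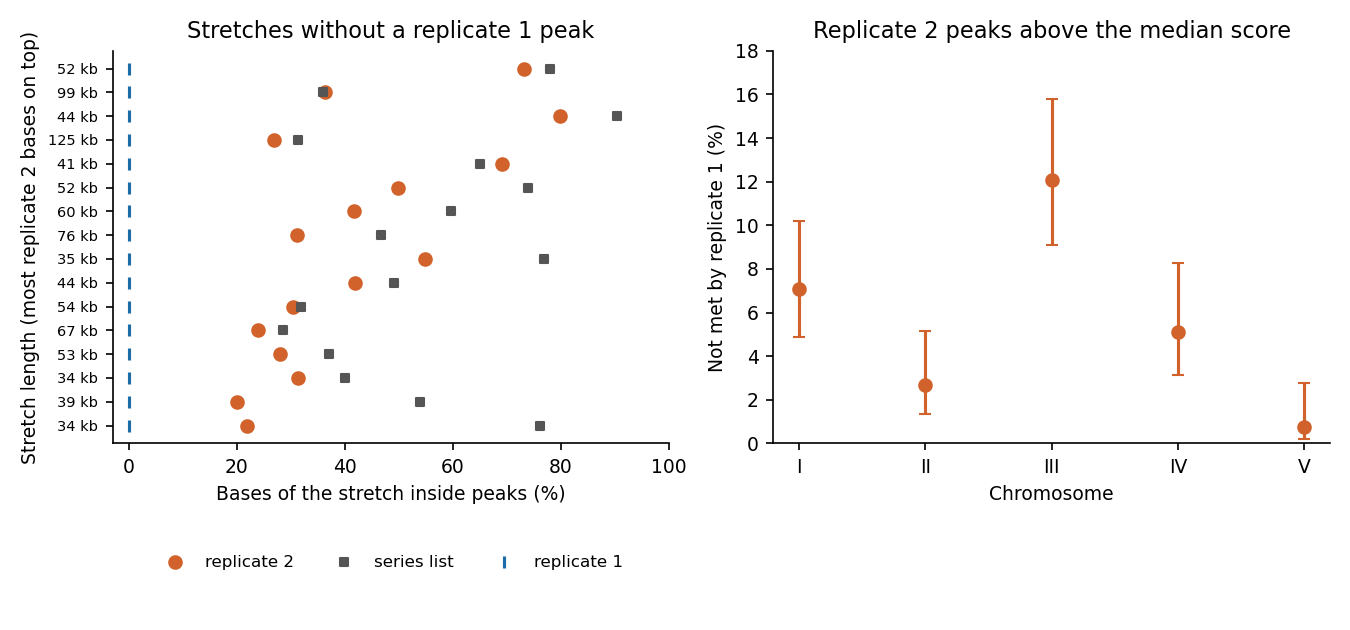
Left, percent of bases inside peaks (x axis) of replicate 2 and the series list in the 16 stretches of chromosome III without a replicate 1 peak, labelled by length. Right, percent of replicate 2 peaks above the list's median score that met no replicate 1 peak on each autosome (95% Wilson intervals), highest on III at 12.1%.

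The narrower series peaks were sorted by which replicate they met. Of the 2895, 902 met both replicates (31.2%, 95% Wilson interval 29.5 to 32.9%), against 31.5% over all nuclear chromosomes. Another 1175 met replicate 1 only (40.6%, against 42.9%), and 684 met neither (23.6%, against 22.4%). The 134 that met replicate 2 only made up 4.63% (3.92 to 5.46%), against 3.19% over all nuclear chromosomes and 2.90% (2.57 to 3.26%) on the other autosomes. The classes rested on the rule for overlap. With 50% of both peaks required, 6.80% were over both, 3.11% over only replicate 1, 10.7% over only replicate 2 and 79.3% over neither. Under the rule of 1 base, those over replicate 2 only differed by place. The 106 in the centre had a median width of 2218 bases and scored 23.6 in the median, next to 1947 bases and 20.9 for the centre peaks over both. In the left and right arms there were 15 and 13, with median widths of 328 and 334 bases. Peaks over neither replicate were narrow everywhere, with a median of 237 bases, and made up 39.1% of the left arm's series peaks, 28.3% of the right arm's and 14.9% of the centre's. All 688 replicate 1 peaks (99.9% over all nuclear chromosomes) and 759 of the 773 replicate 2 peaks (98.2%) were touched by the series list.

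Of the 10 series peaks with the highest scores among those over both replicates, 5 lay in the centre, 5 in the right arm and 0 in the left arm. The first, at 11007749 to 11010441 in the right arm, was 2693 bases wide and scored 126.64 in the series list. Replicate 1 gave its own peak there the score 3100 and replicate 2 the score 573.89. The next, at 6195868 to 6209934 in the centre, was 14.1 kb wide and scored 96.97, and its edges lay at most 523 bases from those of the replicate peaks. It was followed by 7854288 to 7863227 with 95.88, 10457363 to 10460602 with 95.4, and 9458673 to 9469710 with 95.22. The last of these lay in the densest window of the chromosome by the mean of both replicates. The remaining peaks were at 13639857 to 13645113, 4751460 to 4759558, 11235368 to 11238714, 3457599 to 3463456 and 12976093 to 12980388, with scores from 94.88 down to 86.33. The last bordered on the left the longest series gap of the right arm. Replicate 1 scored 3100 at 8 of the 10, a score that 140 of its 688 peaks on III had (20.3%). The lowest score of a replicate 2 peak there was 358.95, against a median of 290.02 over its list on III. At the first 2 sites replicate 2 scored far below 1806.81, the median of its highest score group. The top sites of the series list were thus both narrow and broad, from 2693 to 14067 bases. Among these 10, the right arm held as many as the larger and denser centre. Of all 902 series peaks over both replicates, 521 lay in the centre, 248 in the right arm and 133 in the left arm. Their median scores were 20.9, 17.4 and 20.4, so the place of the 10 does not describe the whole set.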

How the data were processed

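The submitters' processing notes name BWA, without a version, and the build ce10. The replicate lists name MACS and the series list MACS v2 as their source, and all 3 name WormBase WS220, per the file headers and lines; the cutoff, the control and any pooling were not given in the sources used here. Peak scores are as the authors deposited them, on a scale that no header names, and were used only within a list. Peak starts and ends are 1-based, as deposited.

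All lines of chromosome III were used. Its span runs from base 1 to the highest peak end in any list, not to a genome's end. Peaks were placed by midpoint, and covered bases were counted exactly. Named items were the 10 top series peaks over both replicates, the 5 densest and 5 emptiest windows, and the 3 widest peaks, longest gaps and longest shared stretches. The members and lists were chosen with earlier results of these data known. Intervals treat peaks as independent, though neighbours are not. Alternatives changed overlap, score, centre, span, windows and replicates. Tools were Python 3.11.15, scipy 1.17.1, numpy 2.4.6, matplotlib 3.10.9 and pandas 2.3.3, and the counting was tested on simulated lists.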

Additional observations from a re-analysis of the deposited data

How the results depend on the processing

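Leaving out the stretches without a replicate 1 peak and using means of width and gap were chosen after seeing the data. Leaving out a replicate gives the value of the other, so such ratios lie within the replicate spread by construction and show nothing of stability. In its 5 other alternatives, the coverage of chromosome III relative to the other autosomes moved by less than that spread. The centre-to-arm ratio did so in 5 of 6, and was 1.25 as peaks per Mb, where replicate 1 alone gave 0.933. The right-to-left ratio stayed above 1 in all 8, of which 2 leave out a replicate. It moved by more than its narrow replicate spread (1.73 and 1.69) in 5. These gave 1.63 in the better-scoring 50% of each list, 1.55 in the series list, 1.65 from the lowest peak start, 1.60 with a central 40% and 1.75 without those stretches. The centre-to-arm ratio of the median gap was 0.846, and turned to 1.06 with a central 40%. It was 0.484 without replicate 1 and 1.48 without replicate 2, so over all calls the median gap has no direction that holds in both lists. In the better-scoring 50% it was 0.504 in replicate 1 and 0.325 in replicate 2. The ratio of the mean gap was 0.922 and 0.516, so both of these alternatives gave shorter gaps in the centre in each list. The centre-to-arm ratio of width stayed above 1 in all 5 alternatives, of which 2 leave out a replicate. It fell from 1.85 to 1.26 in the better-scoring 50% of each list.

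Requiring 50% of both peaks to overlap left 36.3% of replicate 1 and 32.3% of replicate 2 peaks met, and put series peaks at 79.3% over neither, 6.80% over both, 3.11% over only replicate 1 and 10.7% over only replicate 2, since narrow peaks cannot fill 50% of a broad peak. With the midpoint rule, 52.5% of replicate 1 peaks were met, and series peaks were 27.1% over both and 43.97% over replicate 1 only. In the better-scoring 50% of each list, 74.03% and 81.4% of replicate 1 and 2 peaks were met, and series peaks were 29.8% over neither, 28.5% over both, 34.3% over only replicate 1 and 7.32% over only replicate 2. Without the stretches that lack replicate 1 peaks, 96.3% of replicate 2 peaks were met, by construction. The mean of the replicates' median gaps was 17449 bases in the better-scoring 50% and 10841 after merging peaks closer than 1000 bases, and 395 in the series list; the median width was 4932, 4096 and 432 bases.

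The choice of the 5 densest windows was fragile. Of them, 1 lay in the 2 densest 500-kb windows, and 2 were found again with windows moved by 100 kb, 2 by peaks per window and 2 in the series list. For the 5 emptiest these numbers were 1, 3, 3 and 4. The 500-kb number says little for either set, because only 2 large windows were taken and some of the 5 cross a 500-kb border. No paired analysis was possible because the input samples, whose replicate numbers match those of the ChIP samples, were not analysed here; ratios were formed within each ChIP replicate. The depth of the libraries is unknown and limits what a place without a call can show.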
